A study of Mus musculus with 5 samples.

Results

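Lhx8, the gene of a LIM homeodomain transcription factor of oocytes, lies on mouse chromosome 3, and 10 genes of that stretch of the chromosome were followed in newborn ovaries that lack it: Nexn, Ak5, Pigk, St6galnac5, St6galnac3, Rabggtb, Acadm, Slc44a5, Cryz and Negr1, in their order along the chromosome. The genes were chosen by position and by name. Every probe set annotated with a single symbol among them was taken, which gave 17 of the 45037 probe sets other than controls and 9 of the 18193 genes. Slc44a5, the nearest of these 10 genes to Lhx8, had no such probe set and was not analysed here. The RNA came from Lhx8 null and wild type mice of a hybrid C57/BL6/129SVEV background, female, at 0.5 days after birth. Each of 3 null pools (replicates 1, 2 and 3) and 2 wild type pools (replicates 2 and 3) held 50 ovaries from at least 25 animals and was hybridised to 1 array. Both groups carry the same background label and no treatment, and the comparison asked which transcripts change when Lhx8 is missing.

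Genes that lie side by side are inherited together, so a mutant allele brings along the DNA next to it. They can also share enhancers or a chromatin domain, although neighbours often have unrelated functions. A targeted allele is usually made in embryonic stem cells of one mouse strain and then bred into another. Which strain's alleles each pool carried beside Lhx8, and which part of Lhx8 was deleted, the sources used here do not say. A difference due to the loss of Lhx8 and one due to the alleles next to it therefore cannot be told apart by these arrays. In whole ovaries, fewer cells of a type and less RNA per cell cannot be told apart either.

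In the gene order of the mouse assembly GRCm38.p6, counted over protein-coding genes, Slc44a5, Acadm and Rabggtb are the genes 1, 2 and 3 places before Lhx8. St6galnac3, St6galnac5, Pigk, Ak5 and Nexn stand 6, 7, 8, 9 and 13 places before it. Cryz is 2 places and Negr1 7 places after it. The promoter stretches of 4 measured members are shown because they belong to the nearest measured member on each side (Acadm and Cryz), the next one before Lhx8 (Rabggtb), and the member that rose most (Negr1). Sequences are from RefSeq on GRCm38.p6, 5′ to 3′ on the gene's strand, and end at the base before the gene's annotated span. Acadm is at chr3:153944644-153944893 on the minus strand, Rabggtb at chr3:153912967-153913216 on the minus strand, Cryz at chr3:154596461-154596710 on the plus strand and Negr1 at chr3:156561544-156561789 on the plus strand. Capitals mark short cores of a kind bound by LIM homeodomain proteins, searched on both strands. The first core that was searched for is TAATTA. The second of the cores searched for is TAATTG, and the last of the cores searched for is TGATTG.
Acadm: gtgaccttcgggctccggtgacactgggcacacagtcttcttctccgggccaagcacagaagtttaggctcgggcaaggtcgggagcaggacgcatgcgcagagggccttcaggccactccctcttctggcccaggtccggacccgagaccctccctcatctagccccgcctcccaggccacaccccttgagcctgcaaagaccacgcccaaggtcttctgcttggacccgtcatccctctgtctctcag
Rabggtb: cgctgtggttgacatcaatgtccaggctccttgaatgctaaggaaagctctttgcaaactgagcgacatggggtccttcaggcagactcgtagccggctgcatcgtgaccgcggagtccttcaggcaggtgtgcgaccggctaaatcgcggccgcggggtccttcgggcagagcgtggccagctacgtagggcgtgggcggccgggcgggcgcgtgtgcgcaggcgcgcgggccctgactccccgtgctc
Cryz: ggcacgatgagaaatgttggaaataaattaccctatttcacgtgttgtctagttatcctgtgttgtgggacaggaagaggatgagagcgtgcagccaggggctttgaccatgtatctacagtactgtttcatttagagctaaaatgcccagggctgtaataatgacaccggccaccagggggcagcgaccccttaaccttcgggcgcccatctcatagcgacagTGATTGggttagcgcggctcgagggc
Negr1: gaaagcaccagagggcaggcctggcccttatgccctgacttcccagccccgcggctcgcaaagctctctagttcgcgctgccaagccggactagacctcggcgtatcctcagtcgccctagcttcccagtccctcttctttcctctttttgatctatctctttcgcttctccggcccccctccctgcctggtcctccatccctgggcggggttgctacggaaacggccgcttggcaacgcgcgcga

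Of these 4 stretches, that of Cryz held TGATTG, starting 26 bases before the annotated start. The table held 8 windows of 250 bases for 6 members, namely St6galnac3, Rabggtb, Acadm, Slc44a5, Cryz and Negr1. In them 2 windows had a match, the second being a further start inside Rabggtb, with TAATTG. Of the 32851 windows in the whole table, TAATTA occurred in 4.84% of windows. The share of windows was 7.17% for the core TAATTG and, for the remaining core, it was 12.7%. Any of them occurred in 22.3%. A match describes the letters and is not a binding site, and a window without one says nothing about the factor. The GC content of the windows was above the table's median for 3 of those shown, at 66.4% for Rabggtb, 64% for Acadm and 63.6% for Negr1, and was 51.6% for Cryz, against a median of 52.4% over all windows.

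The labels were first checked at Lhx8. Its signal was 332.6, 159 and 347.4 in null pools, against 6450.1 and 5223.1 in wild type pools, so the groups lay far apart. After quantile normalization on the scale log2(signal + 16), used for every log2 difference here, the null minus wild type difference was -4.45 (SE 0.29, adjusted p = 1.08e-05, limma with Benjamini-Hochberg adjustment). Array correlations were 0.960 to 0.974 among null arrays, 0.970 between wild type arrays and 0.905 to 0.931 across groups. The hybridisation controls BioC and Cre had mean signals in null pools of 2.12 and 1.90 times the wild type mean, and their part in the results was not tested.

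Of the 10 neighbours, Negr1, Ak5 and Cryz were higher and Nexn and Pigk lower in Lhx8 null ovaries, Pigk by its brightest probe set only, while Acadm, Rabggtb and St6galnac3 did not pass and St6galnac5 was too dim to be tested. In the fit with the brightest probe set of each gene, 8 of the 9 measured members were bright enough to be tested, and 5 of these 8 passed an adjusted p of 0.05 (limma), 3 higher and 2 lower. Over all 10916 genes tested, 47.8% were called, 25.6% higher and 22.3% lower, so the 62.5% of members called stands near the background of this comparison. Their median log2 difference was 0.12, against 0.04 over all genes tested, and their median absolute difference 0.83 against 0.44. Negr1 and Ak5 were below the brightness limit in wild type ovaries and entered the test through their null arrays. Their differences of 2.38 and 1.83 are part of both medians. The counts and the medians of the tested members are therefore a description only. Among all 17 probe sets, with no brightness filter, 6 were called, 4 higher and 2 lower, which is 35.3% against 21% of all 45037 probe sets (10.7% higher and 10.3% lower). In 12 of the 17, or 70.6%, no null pool overlapped a wild type pool, against 49.5% of all probe sets. Among the 8 genes tested that held for 7, against 67.8% of all genes tested.

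**Figure D1:**
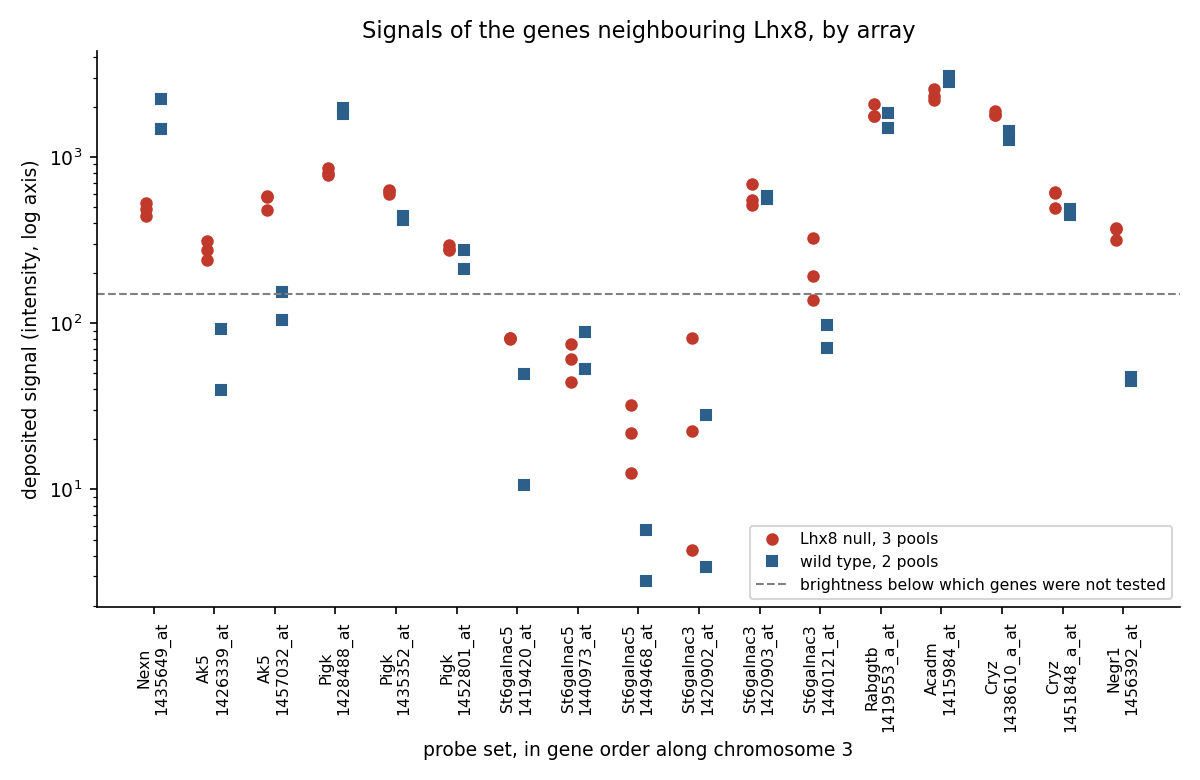
Deposited signal of each member probe set on each array (log axis), null pools as circles and wild type pools as squares, in gene order along chromosome 3. The dashed line marks the signal of about 150 that matches the mean level below which genes were not tested. Nexn and the first Pigk probe set were lower on all 3 null arrays, Ak5 and Negr1 were higher on all 3, and Rabggtb overlapped between the groups.

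Nexn encodes nexilin, an actin filament binding protein known from muscle and from cell-matrix contacts. Its single probe set read 441.7, 524.5 and 487.4 in null replicates 1 to 3, while wild type replicates 2 and 3 read 1469.9 and 2216.1. Every null array was below every wild type array, and the wild type pools differed from each other by more than the null pools did. The mean signal was 485 ± 41.5 (SD, n = 3) in null and 1843 ± 528 (SD, n = 2) in wild type ovaries. The level of Nexn fell by 1.84 in log2 units (SE 0.20, adjusted p = 0.000118), or 3.58-fold. The call held in all 13 alternatives, between -2.13 without wild type replicate 2 and -1.52 without wild type replicate 3.

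Muscle and germ cell markers moved in opposite directions beside Nexn. Of 8 smooth muscle markers, led by Acta2 and Myh11, 7 were tested and all 7 were higher in null ovaries. The summed signal of all 8 was 29354 to 39173 on null and 9541 to 11172 on wild type arrays. Of 10 germ cell and oocyte markers, led by Ddx4 and Dazl, all 10 were lower, with a summed signal of 7151 to 11259 on null and 58660 to 59023 on wild type arrays. No marker was at 0 on any array. The part of these cell types in the fall of Nexn was not tested.

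Ak5 and Acadm act in energy metabolism and Cryz in the reduction of quinones. Ak5 encodes an adenylate kinase, which balances AMP, ADP and ATP and is known from brain. The brighter of its probe sets, 1457032_at, had signals of 579.5, 476.1 and 573.1 in null pools, against 153.3 and 104.3 in wild type pools. The groups were well apart, at means of 543 ± 57.9 (SD, n = 3) and 129 ± 34.6 (SD, n = 2). Ak5 rose by 1.83 (SE 0.21, adjusted p = 0.000167), with 1.56 when 64 was added in place of 16.

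The second Ak5 probe set, 1426339_at, moved the same way. Its signals were 313.1, 238.5 and 274.4 in null pools, against 39.5 and 92.6 in wild type pools, again without overlap. It rose by 1.71 (SE 0.34, adjusted p = 0.00894 over all probe sets). Without wild type replicate 2 it stood at 1.21 and did not pass (adjusted p = 0.0574). The log2 ratio of both Ak5 probe sets within an array overlapped between the groups (two-sided exact permutation p = 0.7).

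Acadm, the gene of the medium-chain acyl-CoA dehydrogenase of mitochondrial fatty acid oxidation, is the measured gene next to Lhx8 on the side where Slc44a5 stands between them. Its signals were 2211.1, 2547.2 and 2334.8 in null pools, against 2833.8 and 3063.7 in wild type pools. Null arrays were lower on each, by a small margin, and the difference of -0.27 (SE 0.12) did not pass (adjusted p = 0.0868). With each array centred on its median it was -0.56 and passed (adjusted p = 0.0138). That scaling moved the median difference of all genes tested from 0.04 to -0.18, so Acadm lay 0.31 below that median as reported and 0.38 below it after centring.

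Cryz, which encodes the quinone reductase zeta-crystallin, is the nearest member on the other side. Its brighter probe set, 1438610_a_at, had signals of 1878.3, 1783 and 1795.9 in null pools, against 1255.9 and 1437.9 in wild type pools. The groups did not overlap, and Cryz rose by 0.50 (SE 0.13, adjusted p = 0.0105). The call was lost after median centring, at 0.19 (adjusted p = 0.316), where the median of all genes tested was -0.18 in place of 0.04. It was also lost without wild type replicate 2, at 0.41. In the fit of all probe sets, 1438610_a_at passed (adjusted p = 0.0198), a call kept in only 6 of 12 alternatives. The dimmer probe set, 1451848_a_at, had signals of 490.3, 609.1 and 614.7 against 485.1 and 445.8. It overlapped after normalization, with a difference of 0.26 (SE 0.17, adjusted p = 0.361 over all probe sets).

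Negr1 and Pigk belong to the biology of proteins held at the cell surface by a glycosylphosphatidylinositol anchor. Negr1 encodes an anchored adhesion molecule of the IgLON family, known from neurons, and had the largest difference among the members. Its single probe set had signals of 368.2, 316.6 and 371.1 in null pools, against 47.4 and 45.2 in wild type pools. The mean was 352 ± 30.7 (SD, n = 3) against 46.3 ± 1.56 (SD, n = 2). Negr1 rose by 2.38 (SE 0.22, adjusted p = 5.88e-05). The wild type signal was below the brightness limit, so the size depends on the added constant: it was 2.68 with 1 and 1.80 with 64, and the call held in all 13 alternatives.

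Markers of neurons, led by Tubb3 and Snap25, were also measured beside Negr1. Of the 6, 3 were tested, 1 was higher and 1 lower, with a median log2 difference of 0.11. The summed signal of all 6 was 2251 to 2474 on null and 1021 to 1169 on wild type arrays. The part of neurons in the rise of Negr1 was not tested.

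Pigk encodes the catalytic subunit of the transamidase that attaches the glycosylphosphatidylinositol anchor, and its probe sets did not change alike. The brightest, 1428488_at, had signals of 775.1, 854.2 and 799.3 in null pools, against 1816.5 and 1954.7 in wild type pools. It fell by 1.16 (SE 0.13, adjusted p = 0.000173), from a mean of 1886 ± 97.7 (SD, n = 2) to 810 ± 40.5 (SD, n = 3). Probe set 1435352_at had 594.7, 632.5 and 624.6 in null pools, against 419.7 and 442.1 in wild type pools. Here every null array was above every wild type array, and the difference of 0.48 (SE 0.15) missed the threshold over all probe sets (adjusted p = 0.0582). It passed with no further scaling (0.50, adjusted p = 0.0379), with the dimmest 40% of probe sets left out (0.48, adjusted p = 0.044) and without null replicate 1 (0.52, adjusted p = 0.0385). Probe set 1452801_at had 280.9, 276.1 and 293.3 against 211.4 and 276, with a difference of 0.08 (SE 0.22, adjusted p = 0.842).

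The unequal change shows within each array. The log2 level of 1428488_at minus that of 1435352_at was 0.39, 0.44 and 0.35 in null pools, against 2.02 and 2.03 in wild type pools. The null minus wild type difference of that ratio was -1.63, with no overlap. Its two-sided exact permutation p of 0.1 is the smallest that 3 arrays against 2 allow, and 0.275 after adjustment over 11 pairs of probe sets within member genes. The ratio of 1428488_at to 1452801_at, which the annotation ties to the same source sequence, changed by -1.24, also without overlap (exact permutation p = 0.1). Ratios without overlap were not limited to Pigk, and none of the 11 pairs passed after adjustment of the exact permutation p. How often such ratios occur over all genes is not given here. The ratio of 1419420_at to 1440973_at, dim probe sets of St6galnac5, changed by 1.40 without overlap (exact permutation p = 0.1, adjusted 0.275). That of 1420903_at to 1440121_at of St6galnac3 changed by -0.94 without overlap (exact permutation p = 0.2). The pairs of Ak5 and Cryz overlapped. When the probe sets were averaged, Pigk stood at -0.20 and did not pass (adjusted p = 0.298). Among 4315 genes with 3 or more probe sets, 104, or 2.41%, had called probe sets in opposite directions, and by that rule Pigk was not one of them.

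**Figure D2:**
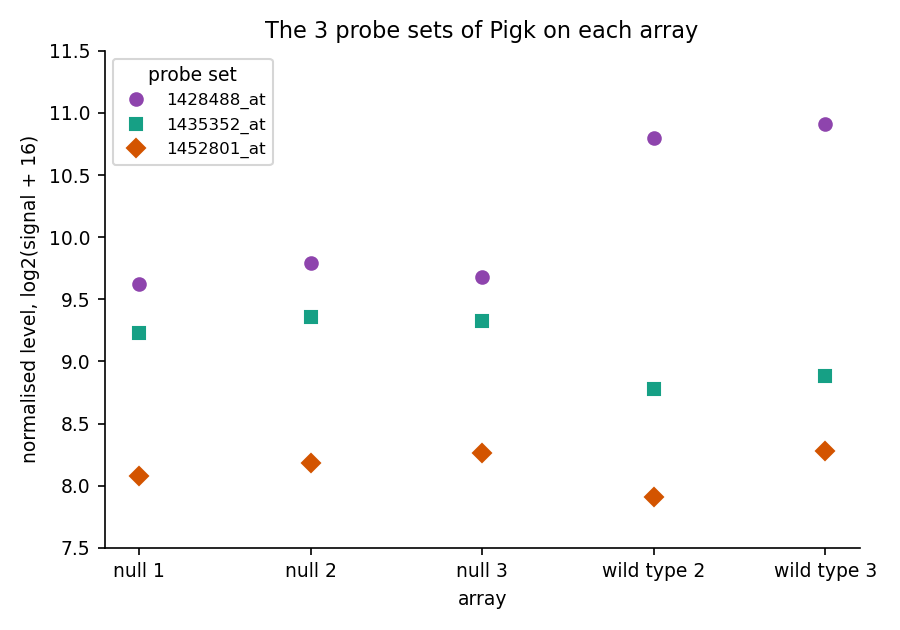
Normalised level, log2(signal + 16), of the 3 Pigk probe sets on each of the 5 arrays. Probe set 1428488_at was lower on the null arrays by 1.16 on average, while 1435352_at was higher by 0.48 and 1452801_at differed by 0.08.

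St6galnac3 and St6galnac5 encode sialyltransferases, which add sialic acid to glycans of glycoproteins and gangliosides. The brightest St6galnac3 probe set, 1420903_at, had signals of 516.5, 547.6 and 689.2 in null pools, against 582.1 and 562 in wild type pools. The wild type values lay inside the null range, and the difference was 0.0044 (SE 0.17, adjusted p = 0.987). Probe set 1440121_at had 325.9, 138.5 and 191.2 against 71 and 98.1, higher on every null array but unevenly so, and its difference of 0.95 (SE 0.36) did not pass (adjusted p = 0.108 over all probe sets). Probe set 1420902_at was dim and scattered, from 3.4 to 81.5 over the arrays, with 0.42 (adjusted p = 0.729).

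All 3 probe sets of St6galnac5 were dim, with no signal above 88.7. Probe set 1419420_at had 81.4, 81 and 79.8 in null pools, against 10.6 and 49.7 in wild type pools, a difference of 0.98 (SE 0.46, adjusted p = 0.177). Probe set 1449468_at had 12.6, 32.2 and 22 against 5.7 and 2.8, at 0.79 (adjusted p = 0.159). Probe set 1440973_at overlapped between the groups, at -0.42 (adjusted p = 0.503). No probe set of St6galnac5 passed.

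Rabggtb encodes the beta subunit of the enzyme that attaches geranylgeranyl lipids to Rab GTPases of vesicle traffic. Its probe set had signals of 1772.6, 2078.6 and 1754.2 in null pools, against 1497.1 and 1826.9 in wild type pools. The raw signals overlapped, the normalised levels did not, and the difference of 0.24 (SE 0.14) did not pass (adjusted p = 0.19). After median centring it was -0.08, where the median of all genes tested was -0.18 in place of 0.04.

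The wider neighbourhood, 25 protein-coding genes before and the 17 left after Lhx8 on the chromosome, held 39 genes on the array, of which 26 were tested. Of these 7 were higher and 7 lower, or 53.8% called against 47.8% of all genes and 51.6% of the 531 tested genes elsewhere on chromosome 3. Without the members it was 9 of 18, or 50%. The median log2 difference was 0.12 over the 26 and 0.07 elsewhere on the chromosome. Before Lhx8, 1 of 14 genes was higher and 4 were lower. After it, 6 of 12 were higher and 3 lower. The difference between the sides was not tested. Without wild type replicate 3 the neighbourhood had 4 higher and 4 lower, and after median centring 4 higher and 10 lower.

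Of the nearest tested genes, Acadm did not pass, Cryz rose and Tyw3 fell. Tyw3, 1 place after Lhx8, acts in a modification of transfer RNA. It had signals of 152.1, 156 and 182.8 in null pools, against 241.7 and 313.3 in wild type pools. Tyw3 fell by 0.86 (SE 0.23, adjusted p = 0.0147), which did not pass once wild type replicate 3 was left out (adjusted p = 0.147). Fpgt, 5 places after Lhx8, encodes an enzyme of fucose salvage and fell by 0.87 (SE 0.20, adjusted p = 0.00598), which was also lost without wild type replicate 3 (adjusted p = 0.0611).

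Farther after Lhx8, Ptger3, the gene of a prostaglandin E2 receptor, stood 9 places away. Its signals were 1770.4, 1996.7 and 1692.8 in null pools, against 538.5 and 566.6 in wild type pools. Ptger3 rose by 1.70 (SE 0.14, adjusted p = 2.43e-05). The average with its dim second probe set, which had no signal above 16.6, was 0.64. Cth, which makes cysteine from cystathionine, rose by 0.84 (SE 0.20), and the splicing factor gene Srsf11 by 0.43 (SE 0.12). Without wild type replicate 3 both calls were lost, at adjusted p = 0.0691 for Cth. Srsf11 did not pass after median centring either (0.16). Wls, needed for the release of WNT proteins, rose by 0.43 (SE 0.16, adjusted p = 0.0459), a call kept in 4 of 13 alternatives. Lrrc40 fell by 0.76 (SE 0.12) and passed in all 13.

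Before Lhx8, beyond the members, Usp33, a deubiquitinase gene 11 places away, fell by 0.64 (SE 0.14, adjusted p = 0.00594). Prkacb, the gene of a catalytic subunit of protein kinase A, fell by 0.34 (SE 0.11, adjusted p = 0.0338), a call kept in 6 of 13 alternatives. Its other probe sets gave -1.09 (adjusted p = 0.00943 over all probe sets) and 0.48 (adjusted p = 0.504). Fubp1, a gene of a DNA-binding regulator of Myc 14 places before Lhx8, had -0.46 at its brightest probe set, which did not pass (adjusted p = 0.111). Another of its 4 probe sets, 1437543_at, rose by 1.66 (adjusted p = 0.0143 over all probe sets). In the fit without the brightness filter 3 dim genes passed too. Msh4, a gene of meiotic crossing over 4 places from Lhx8, had signals of 37.8, 10.6 and 63.4 in null pools, against 269.2 and 196.3 in wild type pools. Msh4 fell by 2.51 (SE 0.47, adjusted p = 0.00477). Lrriq3, 6 places after Lhx8, fell by 1.11 (adjusted p = 0.018), with signals of 98.2, 74.2 and 68.8 against 172.4 and 150.9. Asb17, 5 places before Lhx8, fell by 1.10 (adjusted p = 0.0401). Its signals of 2.7, 3.3 and 1.2 against 26.2 and 13.8 were near the floor and close to the added constant of 16. The 3 dim genes moved with the germ cell and oocyte markers, all 10 of which were lower, and the part of germ cells was not tested.

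**Figure D3:**
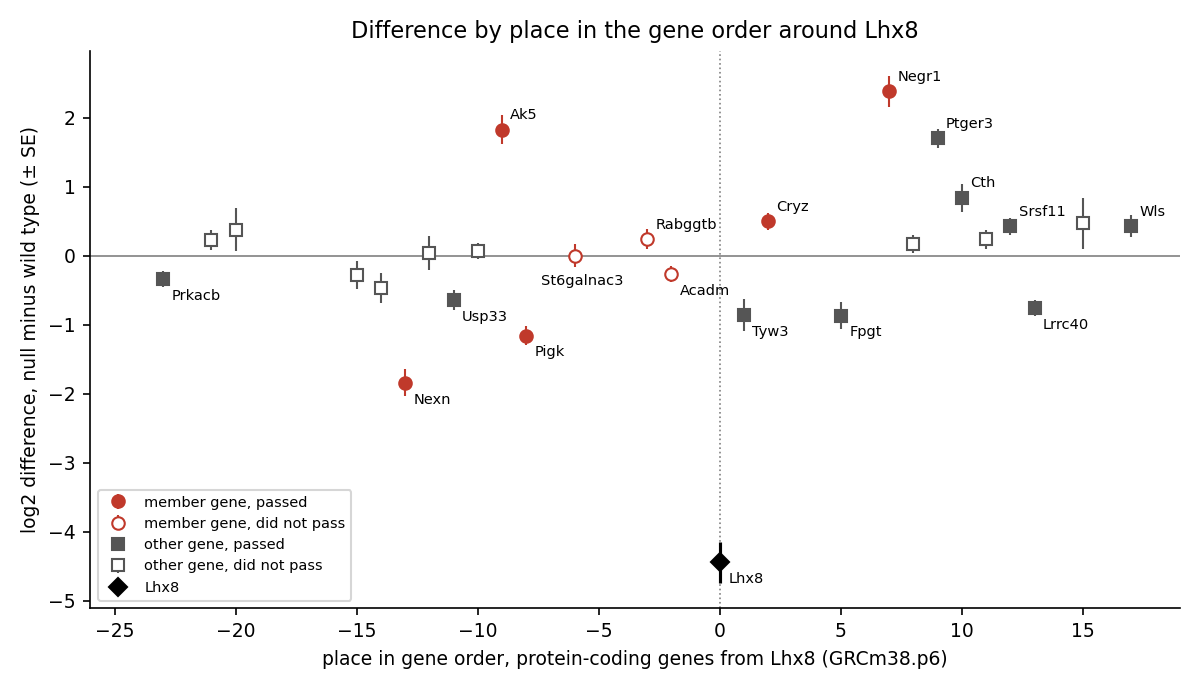
Log2 difference, null minus wild type, with its SE (limma), for each tested gene by its place in the order of protein-coding genes around Lhx8 at 0. Filled symbols passed an adjusted p of 0.05. Acadm, Rabggtb and St6galnac3 lay within 0.27 of 0, and the members with differences above 1 in size (Negr1, Ak5, Nexn and Pigk) stood 7 to 13 places away. Close to Lhx8, Cryz, 2 places after it, passed at 0.50, and Tyw3, 1 place after it and not a member, passed at -0.86. Genes too dim to be tested are not drawn. Among them were Msh4, Asb17 and Lrriq3, not members, which stood 4, 5 and 6 places away. Their differences were -2.51, -1.10 and -1.11 in the fit without the brightness filter. Asb17 was near the floor, with no signal above 26.2.

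Besides germ cells, muscle and neurons, markers of other ovarian and nearby cell types differed between the same arrays. All 6 granulosa and pregranulosa markers were lower, as Nexn and the brightest Pigk probe set were, with summed signals of 15656 to 17587 on null and 26781 to 28706 on wild type arrays. Of 7 macrophage markers 6 were higher, at 8723 to 9777 against 2655 to 2696. All 6 tested markers of oviduct and mesonephric epithelium were higher, at 11294 to 13475 against 899.6 to 1066. Of 5 skeletal and heart muscle markers 1 was bright enough to be tested and was higher. The summed signal of all 5 varied widely between null pools, from 522 to 2337, against 169 to 242 on wild type arrays. The part of these cell types in the differences of Negr1, Ak5, Cryz, Nexn and Pigk was not tested.

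**Figure D4:**
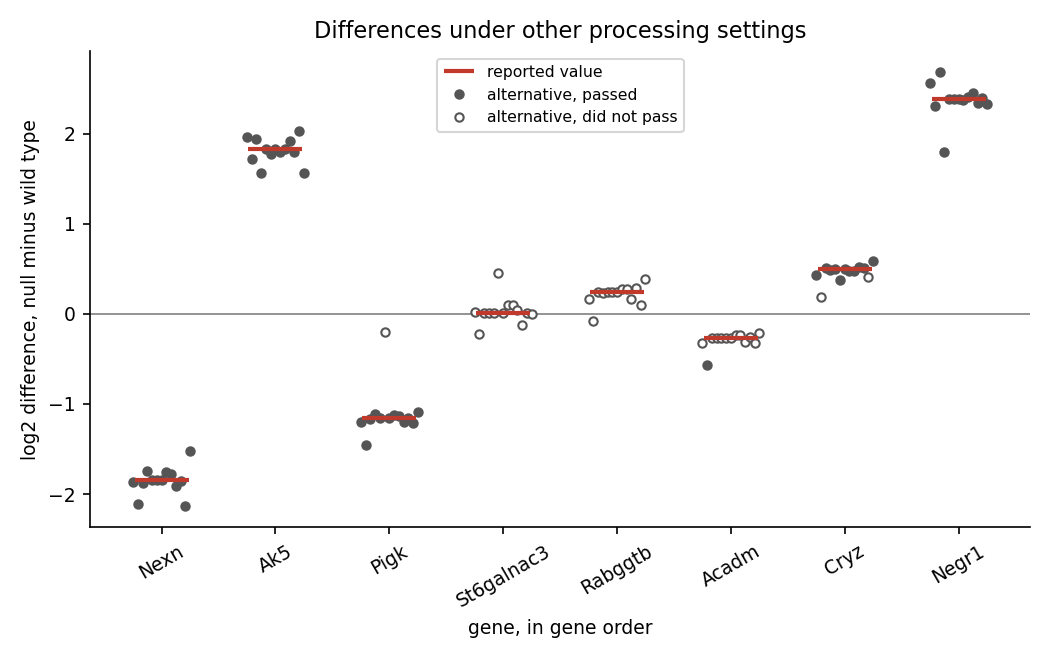
Log2 difference of each tested member as reported (bar) and under 13 other settings (points, filled where the adjusted p was below 0.05). Nexn, Ak5 and Negr1 passed in all 13, Pigk in 12, Cryz in 11 and Acadm in 1, while Rabggtb and St6galnac3 passed in none.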

How the data were processed

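Linear intensities, 1 per probe set and array, were deposited by the authors, scaled to a 2% trimmed mean of 500 on each array. Per the labels' protocols the target was biotin-labelled. GCOS stands in the submitters' processing notes of the wild type arrays. For null arrays no software is named in the sources used here. Groups and replicate numbers came from sample titles. Replicates are pools of ovaries, so p-values measure the spread between pools, and 3 arrays against 2 limit the precision.

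Here log2(signal + 16) was quantile normalised, since array medians ranged from 6.80 to 7.18. Differences were tested with limma 3.58.1 in R 4.3.3 (lmFit, eBayes with a variance trend, two-sided, Benjamini-Hochberg). One fit took each gene's brightest probe set and left out the 40% of genes with the lowest mean (7277 genes, below 7.37 or a signal of about 150). The other took all 45037 probe sets after 64 controls were left out. The normalization and the limma fit of all probe sets were tested on simulated data. The choice of the brightest probe set, the brightness filter and the permutation were not. Ratios between probe sets were compared by exact permutation.

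The text names Lhx8, all members with every probe set, and every gene of the wider neighbourhood past the threshold in the fit of 1 probe set a gene. Msh4, Asb17, Lrriq3 and Fubp1 were named after their values were seen. The members and lists were chosen with earlier results of these data known. Gene order and promoters came from RefSeq on GRCm38.p6, and only bases before the annotated start were searched. Plots were made in Python 3.11.15 with matplotlib 3.10.9.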

Additional observations from a re-analysis of the deposited data

How the results depend on the processing

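Results were recomputed with other array scaling, with 1 or 64 added to the signal, without the dim filter, with probe sets averaged, without a variance trend, with a block for the replicate number, and without each array in turn. For all genes, 2791 were higher and 2429 lower. After median centring 1720 were higher and 3422 lower, which is 33.5% higher in place of 53.5%. Leaving out 1 array gave 1803 to 2966 higher and 1619 to 2558 lower. For the members, 3 higher and 2 lower, median centring gave 2 higher and 3 lower, as Cryz no longer passed and Acadm did. Averaging probe sets left 1 lower, since Pigk no longer passed, and leaving out 1 array gave 2 to 3 higher. Of the member probe sets, 4 higher and 2 lower as reported, leaving out 1 array gave 2 to 5 higher and 2 lower each time. In the wider neighbourhood, 7 and 7, median centring gave 4 higher and 10 lower, and leaving out 1 array 4 to 9 higher and 4 to 7 lower. Where a wild type array was left out, the other is assumed to vary like the null arrays. In the fit with the replicate block, 3 members were higher and 2 lower, with 3068 genes higher and 2583 lower. The deviations of arrays that share a number correlated at 0.0083 and 0.0078. With 2 wild type arrays the deviations of one mirror those of the other. These correlations therefore cannot show whether pools that share a number were handled together. No call of a member reversed under any of these settings.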
